A study of Mus musculus with 79 samples.

Results

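The 9 genes described here handle fatty acids and other lipids: Fabp1, Fabp4 and Fabp5 (fatty acid binding proteins), Cd36 and Lpl (uptake), Plin2 (lipid droplets), Abca1 and Abcg1 (cholesterol export) and Pparg (a nuclear receptor that regulates many of them). They were taken by symbol from a table of 31350 rows that carried 21759 distinct gene symbols. Where a gene had several rows, the row was to be selected on the highest mean log2 intensity, but each of the 9 had exactly 1 row, so no measured value decided which row stood for a gene. The names themselves were chosen with earlier results of these data known. Fabp1 in particular is a gene the study names for its smoke response, so its difference between smoke and sham is given below as a description with no test. In RefSeq's GRCm38.p6 annotation Fabp1 (71199879 to 71205034) and Pparg (115360879 to 115490404) lie on chromosome 6, Fabp4 (10204342 to 10208616) and Fabp5 (10012585 to 10016610) on chromosome 3, and Plin2 (86626910 to 86670217) and Abca1 (53030789 to 53159988) on chromosome 4. Cd36 lies on chromosome 5 (17781690 to 17888959), Lpl on chromosome 8 (68880555 to 68906932) and Abcg1 on chromosome 17 (31057694 to 31117984).

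Whole right lung RNA was measured on Affymetrix arrays in 79 mice, 1 array per mouse. WT mice and littermates overexpressing Scnn1b (βENaC mice), both on a C57BL/6J background and 5 to 7 weeks old, breathed smoke from 6 3R4F reference cigarettes per day, or room air as sham, for 1 day or for 5 consecutive days, and lungs were taken 4 hours after the last exposure. The βENaC transgene is active in airway epithelium, where extra sodium uptake dries the airway surface. The line is used as a model of chronic bronchitis, and its sham-exposed lungs already carry mucus and inflammatory cells. At 1 day there were 10 mice of each genotype and exposure. At 5 days there were 11 WT sham, 9 WT smoke, 9 βENaC sham and 10 βENaC smoke mice. Males and females were present in every group, and the 16 groups that also separate the sexes held 4 to 6 mice.

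For 13 smoke-exposed WT mice 1 label field called the animals BENaC, against their title and genotype fields, which were followed. Scnn1b lay between 8.42 and 9.47 (log2 intensity) in all WT mice and between 11.52 and 11.88 in all βENaC mice. The study's analysis code assigned a mouse to WT from its Scnn1b level, so for that mouse this is not an independent check. Cyp1a1, the cytochrome that aryl hydrocarbon receptor ligands in smoke induce, did not overlap between exposures, with 5.43 to 8.98 in sham and 9.96 to 11.59 in smoke mice. The 2 arrays least like their own group, a βENaC sham male at 1 day and a βENaC smoke female at 5 days, each had a mean correlation of 0.981 with the other arrays of their group, against a median of 0.992. The counts of members given below were the same without these 2 mice.

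Fatty acids enter lung cells from the blood after lipoprotein lipase (Lpl), held on the capillary wall, has split triglycerides, and with the help of transporters such as Cd36. Inside the cell, fatty acid binding proteins carry them to membranes, mitochondria and the nucleus, and the surplus is stored in droplets coated by perilipin 2 (Plin2). Alveolar macrophages depend on Pparg for their identity and for clearing surfactant lipid, and they pass cholesterol to lipoproteins through Abca1 and Abcg1, which liver X receptors switch on. Fabp1 is best known from liver and intestine, Fabp4 from adipocytes and macrophages, and Fabp5 from epidermis, endothelium and macrophages.

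Fabp1 had the largest coefficients of the 9 genes between genotypes and, at 5 days, between smoke and sham, and its promoter is shown here for that reason. The sequence is the 250 bases before the start of the gene on the plus strand, chr6:71199629-71199878 (GRCm38.p6), from the RefSeq table of that build, in which 5 of the 9 genes were found. The capitals mark the 1 place in the window where the nuclear receptor half-site AGGTCA follows a second, inexact half-site after 1 base, in the form AGGNCANAGGTCA, which reads TGACCTNTGNCCT on the opposite strand as shown here. This arrangement, a direct repeat with a spacer of 1 base, is the kind that pairs of PPAR and RXR proteins bind.

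Fabp1: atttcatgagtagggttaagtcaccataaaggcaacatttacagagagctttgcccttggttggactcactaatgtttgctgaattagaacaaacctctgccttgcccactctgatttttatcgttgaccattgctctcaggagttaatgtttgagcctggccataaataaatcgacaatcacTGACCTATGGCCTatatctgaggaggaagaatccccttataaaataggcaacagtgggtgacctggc

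The repeat ended 55 bases before the start. Its form, with a free base in 1 of its half-sites, was picked after the sequence had been seen, and on both strands it occurred in 27 of 32851 promoter windows of this length (0.0822%). The exact repeat AGGTCANAGGTCA occurred in 11 windows (0.0335%), Fabp1 not among them. The single half-site AGGTCA occurred in 14.0% of windows. Fabp1 held it 2 times, once as part of the repeat. These are matches of letters, and no binding was measured.

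The first question was how the genes differed between βENaC and WT lungs. Fabp1 was lower and Fabp5, Plin2 and, after 5 days, Abcg1 and Pparg were higher in βENaC mice, while Cd36 was slightly lower. Differences are coefficients of limma fits on the log2 scale with exposure and sex as further terms, written as βENaC minus WT, which is the reverse of the sign used in the study. Adjusted p-values were taken over all 31350 rows, and a gene was called when its adjusted p was below 0.05 and its coefficient corresponded to more than a 1.3-fold difference. By both thresholds 2 of the 9 genes were called at 1 day, where 1.54% of all rows were, and 3 of 9 at 5 days, where 2.52% of all rows were. By the adjusted p alone it was 4 of 9 at 1 day, against 5.87% of rows, and 6 of 9 at 5 days, against 10.2%. The median coefficient of the 9 was 0.13 at 1 day and 0.24 at 5 days, beside 0.002 and -0.012 over all rows.

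In sham-exposed WT mice Fabp1 ran from 4.91 through a median of 5.81 to 6.25 at 1 day and from 5.62 through 6.20 to 6.64 at 5 days. In sham-exposed βENaC mice it ran from 3.84 through 4.71 to 5.33 at 1 day and from 4.26 through 4.80 to 5.34 at 5 days. The sham groups of the 2 genotypes therefore overlapped at 1 day and were fully apart at 5 days. For this gene, and for Fabp5 and Plin2 below, the share of all rows apart in this way was not counted. Over both exposures Fabp1 was 1.79-fold lower in βENaC lungs at 1 day (coefficient -0.84 ± 0.12 SE, adjusted p = 7.6e-06) and 1.89-fold lower at 5 days (-0.92 ± 0.14, adjusted p = 1.05e-05). All 20 βENaC mice at 1 day and 18 of 19 at 5 days lay below the mean of the WT mice of their own exposure and sex. In sham mice alone the difference was -0.95 ± 0.17 at 1 day (adjusted p = 0.00115) and -1.4 ± 0.16 at 5 days (2.64-fold, adjusted p = 1.64e-07). The WT sham mice, with a mean of 6.17 at 5 days, also enter the smoke difference that was known when Fabp1 was chosen. The genotype p-values of Fabp1, above all those in sham mice, are therefore not independent of that choice. The βENaC values lie close to the array medians of 4.44 to 4.55, where array signals tend to understate differences, so the folds of Fabp1 are uncertain in size. In these sham comparisons 0.81% and 2.67% of rows passed both thresholds.

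Fabp5 went the opposite way. WT sham mice held 8.34, 8.73 and 9.12 (lowest, median and highest) at 1 day and 8.24, 8.56 and 8.84 at 5 days. βENaC sham mice held 8.68, 9.39 and 10.05 at 1 day and 8.92, 9.37 and 9.83 at 5 days. The 5-day sham groups did not overlap, and those at 1 day did. The coefficient was 0.63 ± 0.10 at 1 day (1.55-fold, adjusted p = 6.32e-05) and 0.69 ± 0.10 at 5 days (1.61-fold, adjusted p = 6.3e-06), with 19 of 20 and 18 of 19 βENaC mice above their own WT mean. Fabp5 has near-identical pseudogene copies in the mouse genome whose transcripts its probes may also detect, so its level is uncertain in that respect.

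Plin2, the droplet coat protein that fatty acids themselves induce, was higher in βENaC lungs, and its values spread more widely among βENaC sham mice. At 5 days WT sham mice stayed within 9.46 to 9.73 around a median of 9.66, and βENaC sham mice spread from 9.86 through 10.08 to 10.78, with no overlap. At 1 day WT sham mice lay at 9.47, 9.54 and 9.72 and βENaC sham mice at 9.38, 9.68 and 10.50, with overlap. The SD over sham mice was 0.08 (WT, n = 10) and 0.39 (βENaC, n = 10) at 1 day and 0.09 (n = 11) and 0.27 (n = 9) at 5 days, and the difference in spread was not tested. The coefficient was 0.32 ± 0.07 at 1 day (1.25-fold, adjusted p = 0.00326), short of the fold threshold, and 0.48 ± 0.08 at 5 days (1.4-fold, adjusted p = 4.56e-05).

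Cd36, the scavenger receptor and fatty acid transporter of endothelium and macrophages, passed the adjusted p between genotypes with a small difference. Its WT sham mice ran from 12.00 to 12.18 at 1 day and βENaC sham mice from 11.82 to 12.09. The coefficient was -0.15 ± 0.03 at 1 day (1.11-fold, adjusted p = 1.43e-04) and -0.09 ± 0.03 at 5 days (1.07-fold, adjusted p = 0.0108). Both Abcg1, which exports cholesterol to HDL particles, and Pparg passed the adjusted p at 5 days without reaching 1.3-fold. Abcg1 was higher in βENaC by 0.24 ± 0.06 (adjusted p = 0.00829), with 16 of 19 βENaC mice above their WT mean. Pparg was higher by 0.27 ± 0.08 (adjusted p = 0.0143), with 14 of 19 above. At 1 day their coefficients were 0.14 ± 0.07 and 0.13 ± 0.08 (adjusted p = 0.265 and 0.43). No genotype by duration term of the 9 genes passed (limma, smallest unadjusted p = 0.155 for Cd36), and the term was called in 0 of all rows.

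**Figure D1:**
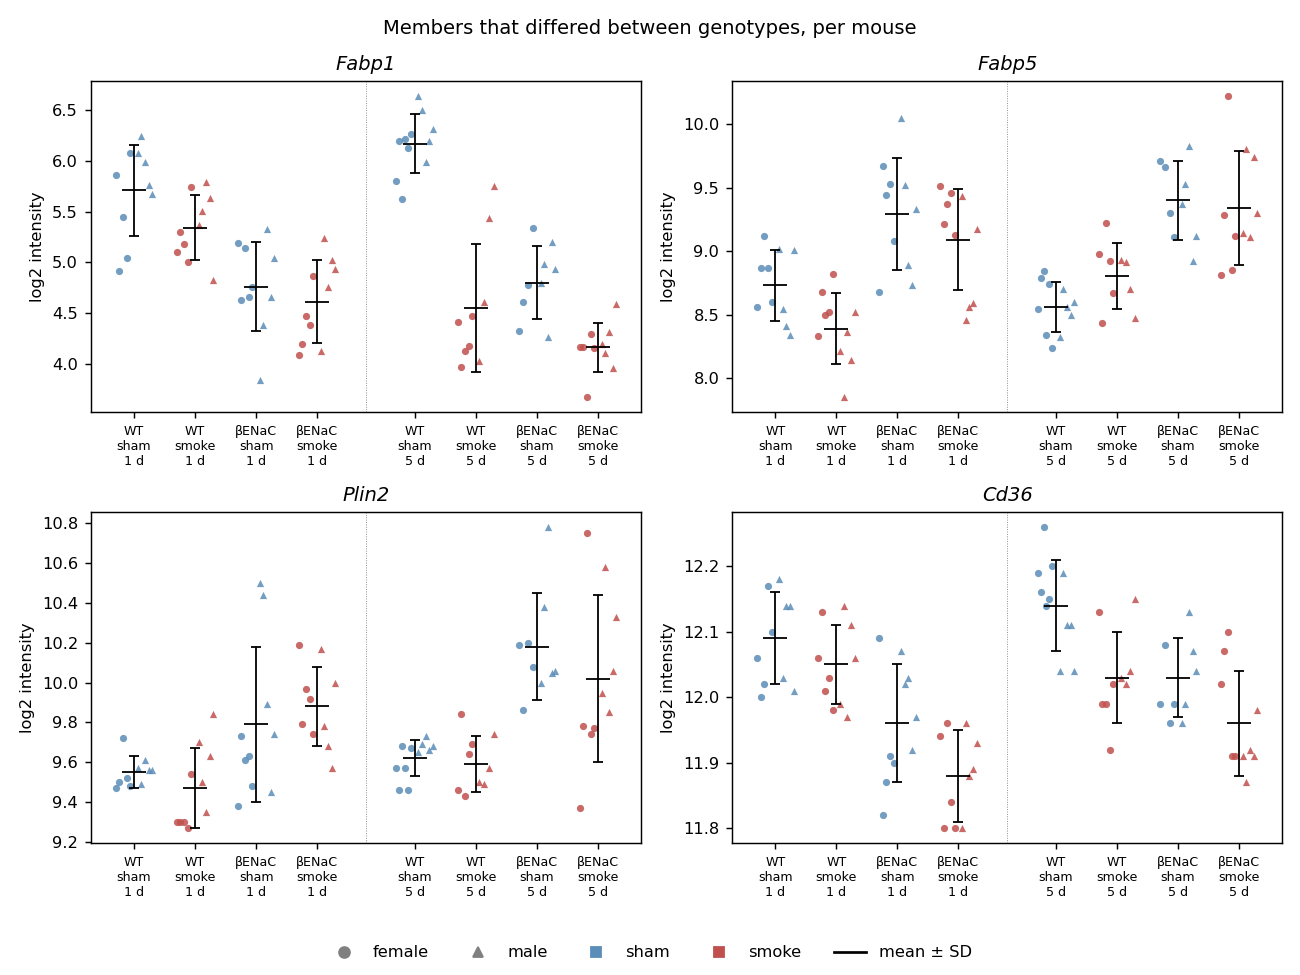
Log2 intensity of Fabp1, Fabp5, Plin2 and Cd36 in each mouse (circles female, triangles male) by genotype, exposure and duration, with mean ± SD in black. The 5-day sham mice of the 2 genotypes do not overlap for Fabp1, Fabp5 or Plin2. How many of all rows are apart in this way was not counted. The Cd36 values span a narrower range than those of the other 3 genes.

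The same genotype comparison in smoke-exposed mice gave smaller Fabp1 coefficients, in tests where 2.6% of rows at 1 day and 1.66% at 5 days passed the adjusted p. It was -0.74 ± 0.17 at 1 day (adjusted p = 0.0127) and -0.41 ± 0.16 at 5 days (adjusted p = 0.245). Fabp5 kept coefficients of 0.70 ± 0.15 and 0.54 ± 0.14 (adjusted p = 0.00514 and 0.0415). Plin2 had 0.41 ± 0.10 (adjusted p = 0.0201) and 0.42 ± 0.12 (adjusted p = 0.0509). Whether exposure and genotype act together is the exposure by genotype term, which for Fabp1 at 5 days was 0.97 ± 0.23. It is given as a value because the gene was chosen with its smoke response known. In the limma test of this term at 5 days 0 of 31350 rows, and so not Fabp1, passed the adjusted threshold. The βENaC smoke mice at 5 days, on which this term partly rests, had a mean Fabp1 of 4.16, below the array medians, and the part of that low level in the term was not tested. At 1 day, where the term passed in 0.00638% of rows, it was 0.21 ± 0.25 for Fabp1, which did not pass. The remaining members had adjusted p-values of 0.793 or more in limma at both durations.

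The second question was the response to smoke. Lpl and Abca1 were higher after smoke at both durations, by 1.22- to 1.29-fold, and Cd36 was slightly lower at 5 days. At 1 day 0 of 9 genes passed both thresholds in limma, where 1.07% of rows did. The ordinary linear model also called 0, and 5 of 9 had an unadjusted p below 0.05. By the adjusted p alone 2 of 9 passed at 1 day, where 9.45% of rows did. At 5 days 1.15% of rows passed both thresholds and 6.53% the adjusted p. Fabp1 passed both, and nothing is read from this because the gene was chosen with its smoke response known. Of the other 8 genes, Lpl, Abca1 and Cd36 passed the adjusted p without reaching 1.3-fold. Lpl also reached 1.3-fold at 5 days without the WT sham female of replicate 3 or without the βENaC sham male of replicate 3 or 5. The median coefficient of the 9 was 0.01 at 1 day and 0.10 at 5 days, beside 0.010 and -0.002 over all rows.

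Lpl frees fatty acids from circulating triglyceride. In WT mice at 1 day it lay at 9.33, 9.57 and 10.25 (lowest, median and highest) in sham and 9.62, 9.85 and 10.14 in smoke. In βENaC mice at 1 day it lay at 9.41, 9.57 and 10.16 in sham and 9.85, 10.06 and 10.24 in smoke. At 5 days WT sham mice held 9.32, 9.55 and 10.08 and WT smoke mice 9.82, 9.93 and 10.70. βENaC sham mice at 5 days held 9.61, 9.75 and 10.15 and smoke mice 9.85, 10.03 and 10.42. The ranges overlapped in each pair, yet all 20 smoke mice at 1 day and all 19 at 5 days lay above the mean of the sham mice of their own genotype and sex. The coefficient was 0.33 ± 0.06 at 1 day (1.26-fold, adjusted p = 6.06e-05) and 0.36 ± 0.07 at 5 days (1.29-fold, adjusted p = 7.23e-04).

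Abca1, which loads cholesterol onto apolipoprotein A-I, shifted in the same manner. At 1 day WT sham mice held 8.29, 8.50 and 8.83 and WT smoke mice 8.72, 8.85 and 8.93, while βENaC sham mice held 8.46, 8.64 and 8.85 and smoke mice 8.74, 8.99 and 9.47. At 5 days the WT values were 8.31, 8.53 and 8.84 in sham and 8.71, 8.89 and 9.06 in smoke, and the βENaC values were 8.54, 8.59 and 8.81 in sham and 8.73, 8.91 and 9.06 in smoke. Again every smoke mouse, 20 at 1 day and 19 at 5 days, lay above the mean of its own sham group although the ranges overlapped. The coefficient was 0.33 ± 0.05 at 1 day (1.26-fold, adjusted p = 3.75e-06) and 0.29 ± 0.04 at 5 days (1.22-fold, adjusted p = 7.06e-06).

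**Figure D2:**
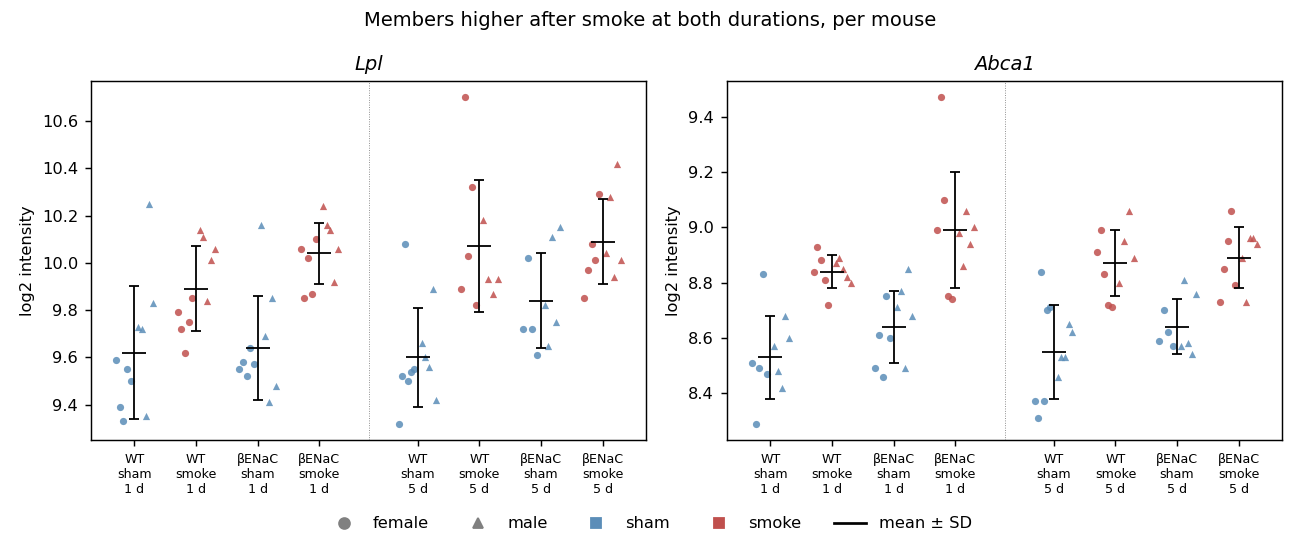
Log2 intensity of Lpl and Abca1 in each mouse (circles female, triangles male) by genotype, exposure and duration, with mean ± SD in black. In each of the 8 smoke and sham pairs shown the smoke mean is above the sham mean and the ranges overlap.

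Within a genotype, the Abca1 response passed the adjusted p in WT and in βENaC mice at both durations, with coefficients between 0.25 and 0.35. In WT mice 3.66% of rows at 1 day and 2.16% at 5 days passed, and in βENaC mice 3.43% and 1.81%. Lpl rose in WT by 0.27 ± 0.08 at 1 day and 0.47 ± 0.10 at 5 days (adjusted p = 0.046 and 0.00441). In βENaC mice Lpl rose by 0.40 ± 0.08 at 1 day (adjusted p = 0.00191), and at 5 days its coefficient was 0.25 ± 0.10 (adjusted p = 0.251). The exposure by genotype term of Lpl was 0.14 ± 0.11 at 1 day and -0.21 ± 0.14 at 5 days, with unadjusted p-values of 0.234 and 0.148 in limma, so a difference between the genotypes was not shown. Cd36 fell by 0.09 ± 0.03 at 5 days (adjusted p = 0.0204). The difference in Cd36 exposure at 5 days no longer passed when each array was centred on its median (-0.081, adjusted p = 0.0596). At 1 day its uncentred coefficient was -0.06 ± 0.03 (adjusted p = 0.164). Lpl was also the only gene of the 9 with a sex difference past the adjusted p, being higher in males at 1 day by 0.22 ± 0.06 (adjusted p = 0.00797), with a coefficient of 0.03 ± 0.07 at 5 days. The sex term passed in 9.89% of rows at 1 day and 0.616% at 5 days. No exposure by sex term of the 9 genes passed (limma, with an unadjusted p below 0.05 for 2 genes at 1 day and 0 at 5 days), and it passed in 0.00638% of rows at 1 day and 0 at 5 days.

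Fabp1 was lower after smoke, chiefly at 5 days, and these values are descriptive. In WT mice at 5 days sham animals held 5.62, 6.20 and 6.64 (lowest, median and highest) and smoke animals 3.97, 4.41 and 5.75, so that only the upper end of the smoke range reached the sham range. In βENaC mice at 5 days sham animals held 4.26, 4.80 and 5.34 and smoke animals 3.67, 4.16 and 4.59, mostly below the array medians of 4.44 to 4.55. The median of the WT smoke animals, 4.41, was also below them. The size of the fall, and of its difference between genotypes, is therefore uncertain in both genotypes. The coefficient at 5 days was -1.13 ± 0.14 (2.19-fold), the 18th largest in size of all rows, and all 19 smoke mice lay below their own sham mean. It was -1.61 ± 0.16 in WT (3.06-fold) and -0.63 ± 0.16 in βENaC mice (1.54-fold). At 1 day WT mice held 4.91, 5.81 and 6.25 in sham and 4.83, 5.33 and 5.79 in smoke, and the coefficient over both genotypes was -0.26 ± 0.12, with 15 of 20 smoke mice below their own sham mean. The coefficient was thus lower by 0.87 ± 0.19 at 5 days than at 1 day. Smoke-exposed WT mice at 5 days had a mean of 4.55 ± 0.63 (SD, n = 9), beside 4.80 ± 0.36 (n = 9) in sham-exposed βENaC mice.

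The remaining genes gave no difference past the adjusted p after smoke. Fabp5 had coefficients of -0.27 ± 0.10 at 1 day (adjusted p = 0.0909) and 0.10 ± 0.10 at 5 days (adjusted p = 0.704), and its exposure by duration term of 0.37 ± 0.15 did not pass (adjusted p = 0.241, where 1.3% of rows did). Without the βENaC sham female of replicate 1 the 1-day coefficient was -0.31 and passed (adjusted p = 0.0298). Pparg had 0.09 ± 0.08 at 1 day (adjusted p = 0.544) and 0.21 ± 0.08 at 5 days (adjusted p = 0.0864), and without the βENaC sham male of replicate 3 the latter was 0.24 and passed (adjusted p = 0.0353). The coefficients of Plin2 (0.01 and -0.09), Abcg1 (0.06 and 0.04) and Fabp4 (-0.16 and 0.17) had adjusted p-values of 0.634 or more. Between the sham mice of the 2 durations 0 of 9 genes passed the adjusted p in limma, where 0.0766% of rows did, and 3 of 9 had an unadjusted p below 0.05.

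**Figure D3:**
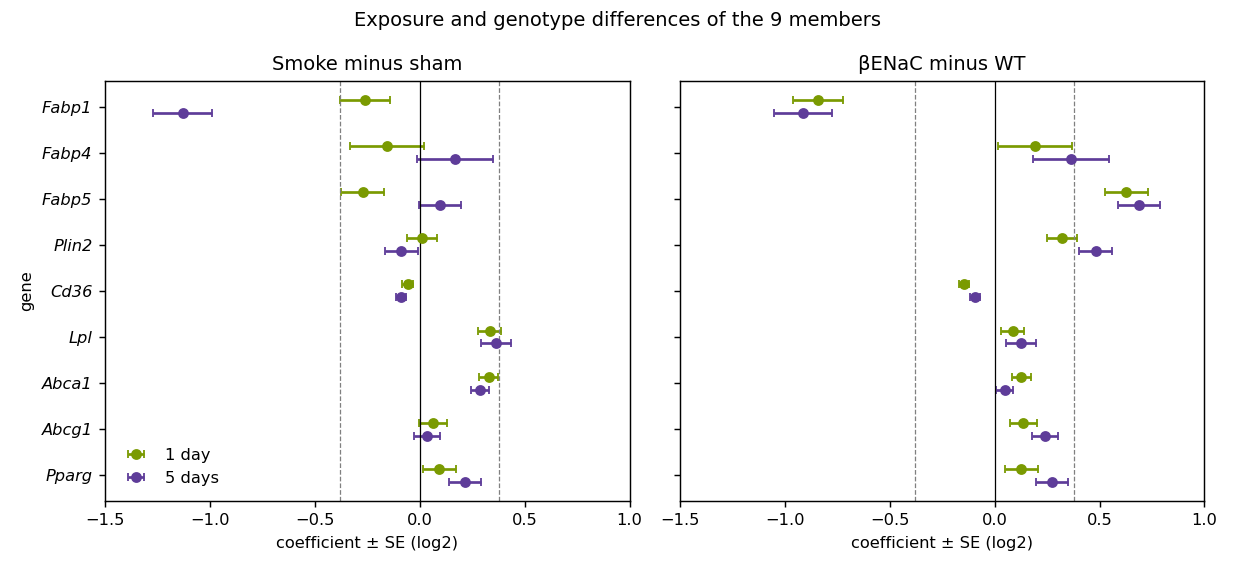
Coefficients ± SE (log2) of the 9 genes for smoke minus sham (left) and βENaC minus WT (right) at 1 and 5 days, with dashed lines at a 1.3-fold difference either side of 0. Lpl and Abca1 sit at 0.29 to 0.36 for smoke at both durations, and Fabp1 is below the lower line for genotype at both durations and for smoke at 5 days.

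Fabp4, the adipocyte fatty acid binding protein, spread widely among mice. Its SD within the 8 groups of genotype, exposure and duration was 0.40 to 0.89, above that of the other members except in βENaC smoke mice at 5 days, where Fabp4 had 0.43 and Fabp5 0.45, and single mice ran from 8.02 to 11.04. No contrast of Fabp4 passed the adjusted p. To show what varied with it, values of each mouse were centred on the mean of its own group, and the correlation over the 79 mice with the mean of cell type marker lists was computed. Fabp4 followed the 6 brown fat markers (r = 0.81, permutation p = 1e-05, adjusted p = 7.87e-05, rho = 0.77, permutation p = 1e-05, adjusted p = 1.05e-04) and the 6 white fat markers (r = 0.79 and rho = 0.78, with the same p-values). With brown fat r was 0.75 in 1-day mice, 0.85 in 5-day mice and 0.77 without the 2 mice farthest from the Fabp4 median. With white fat it was 0.79 in 1-day and in 5-day mice and 0.74 without those 2. The summed fat signal itself differed widely between mice of 1 group, the brown fat mean running from 4.53 to 7.18 in βENaC smoke mice at 5 days. It also followed the heart muscle list (r = 0.58, rho = 0.49, permutation p = 3e-05 and 1.1e-04, adjusted p = 1.99e-04 and 6.93e-04, r = 0.47 without the 2 farthest mice). The 3 genes most like Fabp4 in all the table were Gpd1, Adipoq and Cidea (r = 0.80, 0.80 and 0.78). How much adipose tissue was cut with each lung was not measured.

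These relations of Fabp4 were among 126 computed, 36 between pairs of the 9 genes and 90 with the 10 marker lists. Of the 126, 46 had an adjusted permutation p of r below 0.05. The smallest p that 100000 permutations within groups can give is 1e-05. Each pair of Fabp5, Plin2, Abcg1 and Pparg varied together among mice of a group, with r from 0.59 for Fabp5 and Pparg to 0.75 for Plin2 and Abcg1, rho from 0.45 to 0.66, and adjusted permutation p-values of 2.29e-04 or less for r and 0.0035 or less for rho. All 4 followed the alveolar macrophage list, Abcg1 most (r = 0.79, rho = 0.73, both with permutation p = 1e-05), then Pparg (r = 0.72, rho = 0.68, both p = 1e-05), Plin2 (r = 0.71, rho = 0.58, both p = 1e-05) and Fabp5 (r = 0.56, rho = 0.45, permutation p = 4e-05 and 4e-04). The adjusted p-values were 2.29e-04 or less for r and 0.00202 or less for rho. Without the 2 mice farthest from the median r was 0.74, 0.67, 0.68 and 0.46. Within 1-day mice it was 0.81, 0.81, 0.70 and 0.56, and within 5-day mice 0.80, 0.63, 0.79 and 0.57.

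The macrophage list was not the only one these 4 genes followed. They were higher with the alveolar type 2 cell list (r = 0.58 for Fabp5, 0.59 for Plin2, 0.62 for Abcg1 and 0.50 for Pparg, rho from 0.39 to 0.62). They were lower with the club cell list (r = -0.63, -0.65, -0.60 and -0.68 in the same order, rho from -0.38 to -0.58) and with the capillary endothelial list (r = -0.69, -0.62, -0.48 and -0.50, rho from -0.25 to -0.59). For Fabp5 the endothelial, club and type 2 relations were stronger than the macrophage one. The adjusted permutation p-values of these relations were 0.00846 or less for r and 0.0238 or less for rho, except for rho of Abcg1 with the endothelial list (adjusted p = 0.122). Without the 2 mice farthest from the median r was 0.39 to 0.53 with the type 2 list, -0.44 to -0.60 with the club list and -0.29 to -0.58 with the endothelial list. The monocyte list had r = 0.55 with Fabp5, 0.39 with Plin2 and 0.38 with Abcg1 (rho = 0.50, 0.34 and 0.37, adjusted permutation p of 8.82e-04 or less for r and 0.00812 or less for rho) and r = 0.10 with Pparg.

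In the whole table the genes most like Abcg1 were the lysosomal genes Ctsa and Psap and the macrophage gene Cd68 (r = 0.87, 0.86 and 0.85). For Plin2 they were Gla, a lysosomal galactosidase, Atp6v1b2, a subunit of the proton pump that acidifies lysosomes, and Cd63, a late endosome membrane protein (0.87, 0.86 and 0.84). For Fabp5 they were Dhcr7, the last enzyme of cholesterol synthesis, Tyrobp, a myeloid signalling adaptor, and again Cd68 (0.86, 0.85 and 0.82). For Pparg they were Atp6v0d2, another proton pump subunit, Hebp1 and the mannose receptor Mrc1 (each 0.78). They were picked as the highest of all rows and so have no p.

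The alveolar macrophage markers themselves differed between genotypes, in both directions. Of the 8, 4 were higher and 2 lower in βENaC mice at each duration by both thresholds. At 5 days Ctsk was higher by 1.97 ± 0.20, Marco by 0.84 ± 0.17, Chil3 by 0.79 ± 0.10 and Mrc1 by 0.63 ± 0.11, while Krt79 was lower (-1.002 ± 0.098) and Ear1 was lower (-0.63 ± 0.12). Siglecf had 0.07 ± 0.08 (adjusted p = 0.711). The mean of the list ran from 8.16 to 8.37 in WT sham and from 8.49 to 9.04 in βENaC sham mice at 5 days. The genotypes overlapped in sham mice at 1 day (WT 7.83 to 8.32, βENaC 8.03 to 9.09). They also overlapped in smoke mice at 1 day (7.95 to 8.46 and 8.08 to 9.09) and at 5 days (8.32 to 8.63 and 8.10 to 9.05). Alveolar type 2 markers were higher in βENaC mice for 3 of 7 genes at 1 day and 4 of 7 at 5 days by the adjusted p, and the mean of that list ran from 11.71 to 11.83 in WT sham and from 11.78 to 11.97 in βENaC sham mice at 5 days. Capillary endothelial markers were lower in βENaC mice, 6 of 7 by the adjusted p at 1 day and 5 of 7 at 5 days, as were all 3 measured club cell markers. Of all rows 5.87% at 1 day and 10.2% at 5 days passed the adjusted p in either direction. The part of these shifts in the differences of Fabp5, Plin2, Abcg1 and Pparg was not tested. In whole lung RNA, more or fewer cells of a type and more or less RNA per cell cannot be told apart.

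Fabp1 varied in the opposite sense. Within groups it was lower where Fabp5 was higher (r = -0.55, rho = -0.51, permutation p = 1e-05 and 2e-05, adjusted p = 7.87e-05 and 1.8e-04) and where Pparg was higher (r = -0.51, rho = -0.49, permutation p = 8e-05 and 1.1e-04, adjusted p = 4.2e-04 and 6.93e-04, r = -0.46 without the 2 farthest mice). It was higher with the capillary endothelial list (r = 0.52, rho = 0.40, permutation p = 1e-05 and 8.1e-04, adjusted p = 7.87e-05 and 0.00364, r = 0.47 without the 2 farthest mice). It was also higher with the club cell list (r = 0.42, rho = 0.27, adjusted p = 0.00324 and 0.0688 by permutation) and lower with the alveolar macrophage and type 2 lists (r = -0.33 for both, rho = -0.33 and -0.34, adjusted permutation p of 0.0417 or less). The relation with Fabp5 was -0.53 in 1-day mice and -0.57 in 5-day mice, and -0.51 without the 2 farthest mice. The genes most like Fabp1 were Mal2, Tnfrsf19 and Ocln (r = 0.63, 0.63 and 0.61), of which Ocln encodes the tight junction protein occludin. Markers of liver and gut, the tissues where Fabp1 is most abundant, had correlations near 0 with it. The hepatocyte list had r = 0.02 and rho = -0.04 (permutation p = 0.851 for r), and the enterocyte list r = -0.09 and rho = -0.08 (permutation p = 0.418 for r). In the 8 groups the median of the hepatocyte list was 3.68 to 3.87 and that of the enterocyte list 3.13 to 3.19, against array medians of 4.44 to 4.55. Ttr and Ahsg, both in the hepatocyte list, were nevertheless higher in βENaC mice at 5 days (0.51 ± 0.08 and 0.46 ± 0.15).

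**Figure D4:**
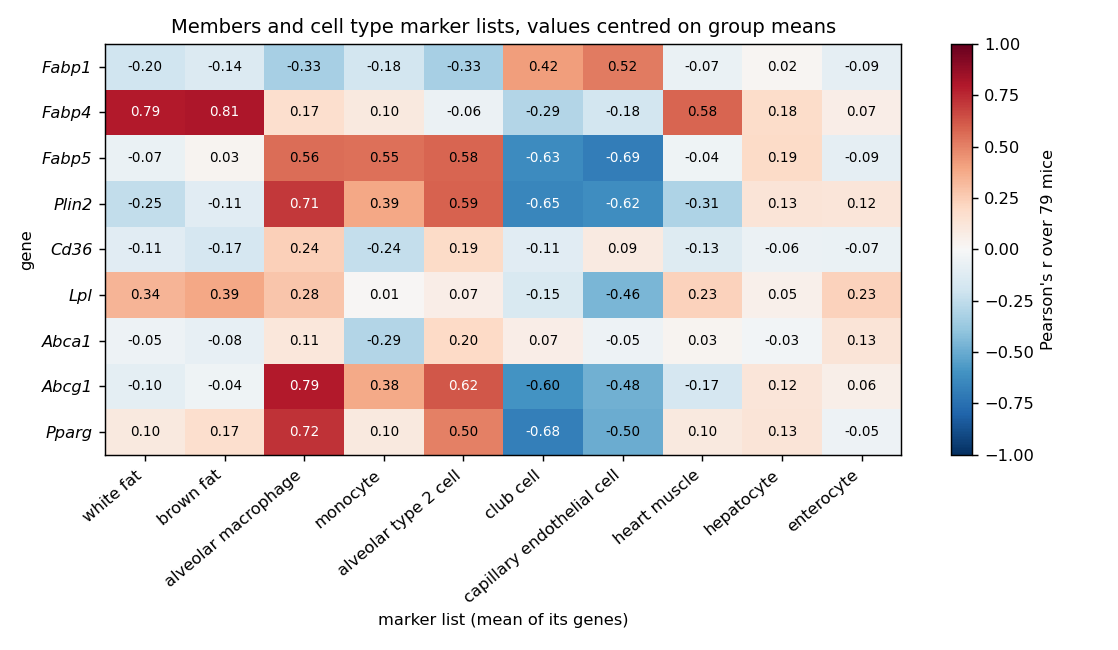
Pearson's r over 79 mice between each of the 9 genes (rows) and the mean of each cell type marker list (columns), after centring on group means, from blue (negative) to red (positive). Fabp4 is red with the fat lists, Fabp5, Plin2, Abcg1 and Pparg are red with the alveolar macrophage and type 2 lists and blue with the club and capillary endothelial lists, and Cd36 and Abca1 are pale throughout.

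For Lpl the strongest list was the capillary endothelial one (r = -0.46, rho = -0.40, permutation p = 1.2e-04 and 6.6e-04, adjusted p = 5.82e-04 and 0.0032, r = -0.43 without the 2 farthest mice). Lpl also followed the brown fat list (r = 0.39, rho = 0.40, permutation p = 0.00242 and 0.00137, adjusted p = 0.00802 and 0.00557, r = 0.48 without those mice), the white fat list (r = 0.34, rho = 0.38, permutation p = 0.0139 and 0.00172, adjusted p = 0.039 and 0.00657) and the alveolar macrophage list (r = 0.28, rho = 0.31, adjusted p = 0.0368 and 0.0304 by permutation). After smoke 6 of the 6 brown fat markers had a positive coefficient at 5 days, with a median of 0.41 and 1 of 6 past the adjusted p. At 1 day 1 of 6 was positive, with a median of -0.10, and that 1 passed both thresholds. At 5 days 4 of 6 white fat markers (median 0.14) and 4 of 4 heart muscle markers (median 0.35) were positive, and 1 in each list passed both thresholds. At 1 day 2 of 6 and 0 of 4 were positive, with medians of -0.20 and -0.10. Of all rows 1.07% at 1 day and 1.15% at 5 days passed both. The mean of the brown fat list ran from 4.71 to 6.26 in WT sham and from 4.47 to 6.91 in WT smoke mice at 5 days, and from 4.37 to 5.73 and from 4.53 to 7.18 in βENaC mice. The part of the fat signal in the smoke difference of Lpl was not tested. The gene most like Lpl was Pdk4, a mitochondrial kinase induced in fasting, with r = 0.60, which was 0.39 in 1-day mice and 0.77 in 5-day mice. No relation of Cd36 or Abca1 with a marker list had an adjusted permutation p of r below 0.05. The monocyte list, whose markers were lower after smoke for 4 of 6 genes at each duration by both thresholds, had r = -0.29 with Abca1 (rho = -0.28, permutation p = 0.022 and 0.0257, adjusted p = 0.0591 and 0.0688) and r = 0.01 with Lpl (rho = 0.02, permutation p = 0.926 and 0.889). At 5 days Plac8 was lower after smoke (-0.75 ± 0.12) and so was Ccr2 (-0.51 ± 0.10).

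Around the 9 genes, 8 lists of lipid genes held 97 with a row. Between genotypes both thresholds were met by 6 of the 97 at 1 day (6.19%) and by 7 at 5 days (7.22%). After smoke it was 1 at 1 day (1.03%) and 0 at 5 days. At 5 days, 40 of the 97 had an unadjusted p below 0.05 in limma, as had 5721 of all 31350 rows, and the ordinary linear model called 0 as well. Over all rows these shares were 1.54% and 2.52% for genotype and 1.07% and 1.15% for smoke. By the adjusted p alone the counts were 21 and 26 for genotype, where 5.87% and 10.2% of rows passed, and 20 and 17 for smoke, where 9.45% and 6.53% did. The lists were drawn up with earlier results known.

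Of the 7 scavenger receptors, 2 were higher in βENaC mice at 1 day and 3 at 5 days, with a median coefficient of 0.19 and 0.17. Olr1, the receptor for oxidised LDL, was higher in βENaC mice by 0.77 ± 0.18 at 1 day and 1.03 ± 0.15 at 5 days. Msr1, scavenger receptor A, was higher by 0.91 ± 0.16 at 5 days. Marco, also one of the macrophage markers above, was higher by 0.86 ± 0.20 and 0.84 ± 0.17. Of 16 lipid droplet and lipolysis genes, Lipa, the lysosomal acid lipase, was higher by 0.41 ± 0.07 and 0.52 ± 0.06, and Cideb was higher by 0.41 ± 0.10 and 0.50 ± 0.11. Cidec, which is also a white fat marker, was lower (-0.47 ± 0.12 and -0.44 ± 0.14). Among 12 carriers and uptake genes Fabp7, another fatty acid binding protein, was higher by 0.67 ± 0.14 and 0.74 ± 0.18. No gene of the synthesis, oxidation, activation, sterol efflux or nuclear receptor lists passed both thresholds between genotypes.

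After smoke the changes in these lists were small. Dgat2, which makes triglyceride, fell by 0.42 ± 0.11 at 1 day and was the single gene of the lists past both thresholds over both genotypes. The 10 fatty acid synthesis genes had 3 positive coefficients at 1 day (median -0.07) and 9 at 5 days (median 0.16). By the adjusted p 0 were higher and 2 lower at 1 day, and 3 higher and 1 lower at 5 days. Of all rows 5.03% and 3.17% were higher and 4.43% and 3.37% lower. The exposure by duration term passed both thresholds in 2 of the 97 genes (2.06%), beside 0.504% of all rows. It passed the adjusted p in 5, beside 1.3%. Of the 13 genes in the nuclear receptor list, which also holds cofactors and the transcription factors Cebpa and Cebpb, 5 were higher by the adjusted p at 1 day. At 5 days 2 were higher, and 0 were lower at either duration. Of all rows 5.03% and 3.17% were higher by this measure. Ppard was in both groups, at 0.36 and 0.20 (adjusted p = 8.07e-05 and 0.00358), and Nr1h3, a liver X receptor, was at 0.16 at 1 day (adjusted p = 0.00749). The other liver X receptor of the list, Nr1h2, had a higher mean log2 intensity (9.19, against 6.82 for Nr1h3), and its coefficient is not given here. Of the 13 sterol efflux genes, Mylip, a liver X receptor target that degrades the LDL receptor, was higher at both durations (0.19 and 0.27, adjusted p = 0.0108 and 0.00508), and Apoc2 was lower at both (-0.28 and -0.32, adjusted p = 0.0115 and 0.00318). The nuclear receptor and sterol efflux genes were named because they passed at both durations or belong to the regulators of Abca1, after their values had been seen.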

How the data were processed

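The deposited table holds log2 intensities that the authors made from Affymetrix Mouse Gene arrays with Expression Console 1.4 and Partek 6.6: RMA background correction with adjustment for probe sequence, quantile normalization and median polish. All arrays were run on a single plate, and the authors removed an array as mislabelled. The number of arrays limits the precision.

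Rows were named by the study's tables (2537) or by RefSeq accessions (19300), and 9513 had no symbol. Members, lists and the rule for named genes were chosen with earlier results of these data known. The rule covered the 9 members, pathway and marker genes past both thresholds, and the 3 genes most like each member. Not every gene that it covered is named above. Each duration was fitted in limma 3.58.1 (R 4.3.3) with exposure, genotype and sex, and interactions were added as terms. Benjamini-Hochberg adjustment covered all 31350 rows. The script was tested on simulated data. Correlations used permutation within groups (100000). No source says that mice of a group came from separate litters or cages, so p-values measure the spread between these mice.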

Additional observations from a re-analysis of the deposited data

Results flagged for a closer look

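In 5 of 144 sets of values (9 genes in 16 groups of 4 to 6 mice) 1 mouse lay far from the others by Dixon's test, which chance gives in about 1 of 20 such sets. Fabp1 was 3.67 in 1 βENaC smoke female at 5 days (replicate 3), against 4.15 to 4.29 in the other 4, and this is also the 5-day mouse whose array was least like its group. Lpl was 10.08 in 1 WT sham female at 5 days (replicate 3), against 9.32 to 9.55 in the others. Plin2 was 9.72 in 1 WT sham female at 1 day (replicate 3), against 9.47 to 9.52, and 9.54 in 1 WT smoke female at 1 day (replicate 5), against 9.27 to 9.30. Pparg was 7.67 in 1 βENaC sham female at 1 day (replicate 5), against 7.14 to 7.27.

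Of 54 interaction terms of the 9 genes, no term of a gene other than Fabp1 passed the adjusted p. For Fabp1 the smoke coefficient differed by -0.874 between 5 days and 1 day (log2). This exposure by duration difference is given as a value because the gene was chosen with its smoke response known. Duration and the day of the experiment cannot be told apart.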

How the results depend on the processing

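The counts of called members kept to within 1.5 times of those given under the ordinary linear model, 1 fit over all mice, centring, quantile normalization, a filter on the lowest 30% of rows, array weights, a trended robust prior and without the 2 arrays least like their group (chosen after seeing the data). Without a fold threshold they were 2 and 4 for exposure at 1 and 5 days, and 4 and 6 for genotype. The counts for exposure at 5 days include Fabp1, from which nothing is read because the gene was chosen with its smoke response known. Pathway genes called without it were 20 and 17 for exposure, 21 and 26 for genotype and 5 for exposure by duration. With a 1.5-fold threshold Plin2, at 1.4-fold, was no longer called for genotype at 5 days. Pathway genes at that threshold were 0 for exposure at 1 day, 3 and 4 for genotype and 1 for exposure by duration. For exposure at 1 day they were 2 in 1 fit over all mice and with the filter, and 3 with array weights or without the 2 arrays. For exposure at 5 days they were 2 with array weights and 1 without the 2 arrays. For exposure by duration they were 4 with centring or quantile normalization and 6 with array weights.

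Leaving out each mouse in turn gave 1 to 2 members called for exposure at 5 days, Lpl being the second (without WT sham female replicate 3 or βENaC sham male replicate 3 or 5). Pathway genes called ranged from 0 to 3 and 0 to 1 for exposure at 1 and 5 days and from 2 to 4 for exposure by duration, and those past the adjusted p for exposure at 5 days from 11 to 21. Plin2 exposure at 1 day, not called, changed sign with quantile normalization (-0.001) and ranged from -0.014 to 0.044 over mice left out (the lowest values being -0.014, -0.013, -0.009, -0.004, -0.003 and 0.000). Lpl exposure by duration, not called, ranged from -0.009 (also -0.001) to 0.059. Cd36 exposure at 5 days lost its call with centring (-0.081, adjusted p = 0.0596). Without βENaC sham female replicate 1 Fabp5 exposure at 1 day passed (-0.314, adjusted p = 0.0298), without βENaC sham male replicate 3 Pparg exposure at 5 days did (0.244, adjusted p = 0.0353), and without WT sham female replicate 4 Abca1 genotype at 1 day did (0.145, adjusted p = 0.0407). The cause of these changes was not tested.

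Deviations of mice with the same replicate number had a mean r of 0.023 at 1 day and 0.000 at 5 days. For mice with different numbers it was -0.006 and 0.000. A mean over all pairs of groups cannot show whether mice of some groups were paired. With the number as a replicate block the members called were 0 and 1 for exposure and 2 and 3 for genotype at 1 and 5 days, and no call of a member changed. Every member had 1 row, so the second-highest row was not run.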
